A study of Mus musculus with 6 samples.

Results

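Cytosine methylation at CpG dinucleotides is written, copied and removed by a small set of enzymes, and 7 of the 54232 genes in the count table were taken here by symbol as that set: Dnmt1, Uhrf1, Dnmt3a, Dnmt3b, Tet1, Tet2 and Tet3. All 7 had reads in every library and all 7 entered the test. Their transcripts were counted by RNA-seq in stromal cells freshly taken from the D4 uterus of pseudopregnant mice, with 3 control libraries and 3 libraries from mice lacking Pbrm1 in the uterus. Pbrm1 encodes a bromodomain subunit of the PBAF chromatin remodeling complex, and the comparison asks which genes differ in stromal cells when it is deleted. The Pbrm1 cKO females carried Pbrm1 fl/fl together with PR-IRES-cre, a Cre recombinase knocked into the progesterone receptor locus that acts in PR-expressing uterine cells and not in the stroma alone. The controls are labelled WT; the study describes its littermate controls as Pbrm1 fl/fl without Cre. Females were 8 to 12 weeks old. Each preparation started from 5 to 10 uterine horns, so animals were pooled, and the cells were plated for 4 h and kept 2 h more in fresh medium before RNA was taken.

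DNA methylation itself was not measured in these libraries, and everything below concerns transcript levels. DNMT1 copies methylation onto the new strand after replication. UHRF1 recognizes hemimethylated CpG and brings DNMT1 to the replication fork. DNMT3A and DNMT3B place methylation on unmethylated sites. The TET proteins oxidize 5-methylcytosine in a reaction that uses 2-oxoglutarate and iron, and the oxidized bases are lost by dilution at replication or cut out by base excision repair. In the D4 uterus the stroma proliferates under progesterone and estrogen before decidualization, the differentiation that follows implantation.

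The libraries held 13253575 to 18338667 counts each, within 1.38-fold of each other. Pbrm1 was lower in each Pbrm1 cKO library, at 397, 459 and 451 normalized counts against 1354, 1385 and 1677 in WT, with a log2 fold change of -1.76 ± 0.13 (SE). The stromal genes Vim, Col1a1 and Pdgfra were abundant in every library, with mean normalized counts in WT of 33864, 23665 and 14507. Of 14 stromal markers tested, 7 were lower and 1 higher in Pbrm1 cKO. Other cell types were present too and moved with genotype. Of 14 leukocyte markers tested, 13 were higher in Pbrm1 cKO and 0 lower, and the summed normalized count of the list was 4234 to 9366 in WT and 40545 to 42136 in Pbrm1 cKO. The myeloid gene Lyz2 and the MHC class II pathway genes Cd74 and H2-Aa had the highest normalized counts of the list in Pbrm1 cKO, whereas the T cell gene Cd3e had 1.07 to 10.9 normalized counts, and the NK cell gene Nkg7 and the B cell gene Cd79a had too few reads to be tested. Epithelial markers were higher in 6 and lower in 0 of 15, and endothelial markers lower in 4 and higher in 0 of 12. Smooth muscle markers were lower in 6 and higher in 0 of 11. Over all genes tested, 15.9% were higher and 15.2% lower. WT library 1 stood apart within its group, with a summed endothelial count of 1942 against 5732 and 4986 in WT libraries 2 and 3; without it 11 endothelial markers were called lower, and without any other single library 1. In RNA from mixed cells, fewer cells of a type and less RNA per cell cannot be told apart.

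Among the 7 genes, Tet2, Tet3 and Dnmt3a were higher in Pbrm1 cKO and Uhrf1 was lower at an adjusted p of 0.05 (DESeq2 Wald test, adjusted over 17474 genes), while Dnmt1, Dnmt3b and Tet1 did not pass. Of all genes tested, 31.1% were called, 15.9% higher and 15.2% lower. The 3 higher and 1 lower of 7 are read against that broad change, and whether the family was called more often than other genes was not tested. The median log2 fold change was 0.44 over the 7 genes and 0.00 over all genes tested. WT and Pbrm1 cKO libraries did not overlap in normalized count for 5 of the 7 genes, Uhrf1, Dnmt3b, Tet1, Tet2 and Tet3, against 48.6% of all genes tested.

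**Figure D1:**
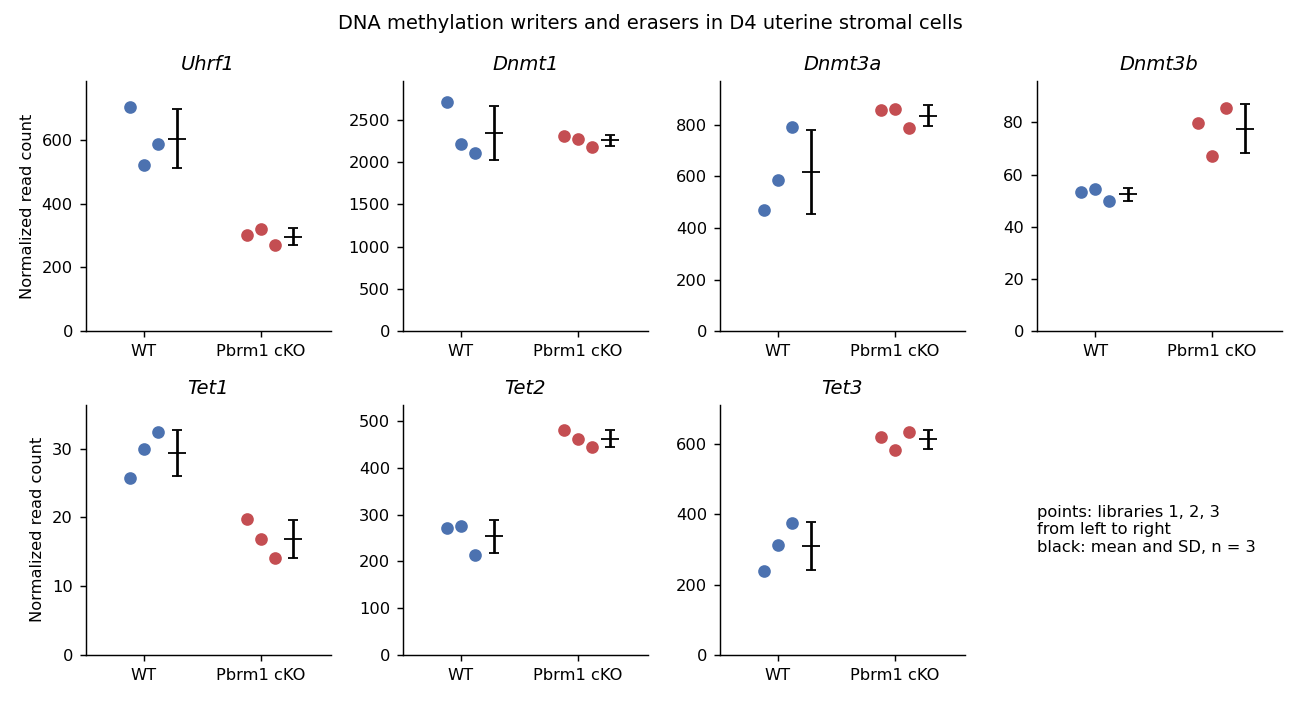
Normalized read counts (vertical axis, from 0) of the 7 genes in the 3 WT libraries (blue) and the 3 Pbrm1 cKO libraries (red), with the group mean and SD (n = 3) in black. The groups are apart for Uhrf1, Dnmt3b, Tet1, Tet2 and Tet3; they overlap for Dnmt1 and, through WT library 3, for Dnmt3a.

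Uhrf1 and Dnmt1, the pair that maintains methylation through replication, had log2 fold changes whose 95% intervals were separate. Uhrf1 (chr17:56303321-56323486, plus strand, GRCm38) had 705, 521 and 586 normalized counts in WT against 302, 320 and 269 in Pbrm1 cKO. Every Pbrm1 cKO library was below every WT library. The mean went from 604 ± 93.8 (SD, n = 3) to 297 ± 25.5, which is 49.2% of the WT mean, with a log2 fold change of -1.02 ± 0.15 (SE), a 95% interval of -1.32 to -0.72 and an adjusted p of 5.61e-10. Dnmt1 (chr9:20907209-20959888, minus strand) had 2707, 2214 and 2105 normalized counts in WT against 2314, 2275 and 2182 in Pbrm1 cKO. The highest library was WT library 1, and the Pbrm1 cKO libraries lay inside the WT range. Its log2 fold change was -0.05 ± 0.12, with a 95% interval of -0.28 to 0.17 and an adjusted p of 0.792, so a change of Dnmt1 as large as that of Uhrf1 lies outside the interval. Per kb of exon, the normalized count of Uhrf1 relative to that of Dnmt1 was 0.451, 0.407 and 0.482 in WT and 0.226, 0.243 and 0.214 in Pbrm1 cKO, a description with no test of its own.

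Uhrf1 has start sites in RefSeq (GRCm38.p6) whose upstream sequences are shown because genes of S phase, to which Uhrf1 transcription is commonly tied, moved with it. The E2F factors that drive such genes bind GC-rich sites, and 4 E2F-like words were searched on both strands of the 250 bases before each start: the word TTCCCGC, its variant TTCGCGC, the further variant TTGCCGC, and finally the word TTGGCGC. Capitals mark a match, and the first window stops at base 234, where an annotated exon begins.
Uhrf1, upstream start, chr17:56303087-56303320, plus strand: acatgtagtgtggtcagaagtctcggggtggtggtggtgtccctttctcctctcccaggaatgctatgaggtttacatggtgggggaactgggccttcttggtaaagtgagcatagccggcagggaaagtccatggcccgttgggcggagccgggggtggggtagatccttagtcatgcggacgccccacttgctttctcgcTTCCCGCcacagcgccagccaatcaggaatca
Uhrf1, downstream start, chr17:56304063-56304312, plus strand: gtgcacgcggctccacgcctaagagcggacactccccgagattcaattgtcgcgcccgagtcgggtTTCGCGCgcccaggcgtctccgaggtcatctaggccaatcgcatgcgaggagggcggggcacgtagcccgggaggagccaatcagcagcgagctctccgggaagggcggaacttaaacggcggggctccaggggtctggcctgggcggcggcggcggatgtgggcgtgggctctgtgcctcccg
The upstream start had TTCCCGC and the downstream start TTCGCGC. At least 1 of the 4 words stood in 7.89% of all 32851 windows in the table and in 16 of the 31 windows found for S phase genes. All 4 words hold a CpG, and the S phase windows had a median of 18 CpG dinucleotides against 6 over all windows. All 7 genes had a window. Dnmt1 had 2 TTCGCGC matches in a window that runs into its own exon and is not printed, and the windows of Dnmt3a, Dnmt3b, Tet1, Tet2 and Tet3 had no match. A match describes letters and is not a measured binding site.

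Uhrf1 moved with a part of the maintenance machinery. Of 10 partner genes, all tested, 5 were lower and 0 higher in Pbrm1 cKO, beside 15.2% and 15.9% of all genes tested. Their median log2 fold change was -0.55, against -0.72 for the S phase list below. Without Pbrm1 cKO library 3, 4 partners were called lower, and without WT library 3, 6. Hells, an SNF2-family remodeler needed for methylation in compact chromatin, had 819, 820 and 998 normalized counts in WT against 288, 276 and 327 in Pbrm1 cKO. Those groups were far apart, with a log2 fold change of -1.57 ± 0.14 and an adjusted p of 6.39e-28. Cdca7, which partners with HELLS, changed by -0.82 ± 0.10. The replication clamp Pcna and the ligase Lig1, whose methylated form is bound by UHRF1, changed by -0.66 ± 0.11 and -0.68 ± 0.20. The chromatin protein gene Cbx3 changed by -0.44 ± 0.14. The paralog Uhrf2 had log2 fold change -0.05 (95% interval -0.23 to 0.13), the deubiquitinase gene Usp7, whose product stabilizes UHRF1 and DNMT1, 0.02 (-0.19 to 0.22), and the H3K9 methyltransferase gene Ehmt2 0.05 (-0.18 to 0.29), none past the threshold. Usp11 and Cdca7l had values of -0.44 and -0.74 with adjusted p of 0.0763 and 0.106.

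**Figure D2:**
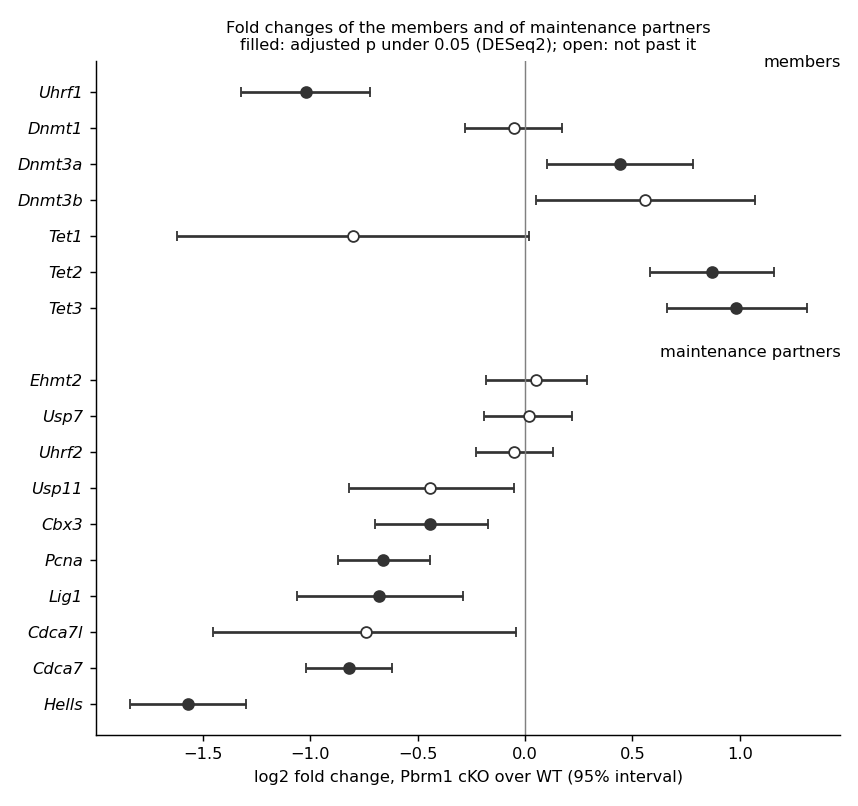
Log2 fold change in Pbrm1 cKO over WT with its 95% interval for the 7 genes and 10 maintenance partners; filled points passed an adjusted p of 0.05. Uhrf1 lies at -1.02 and Hells at -1.57, while Dnmt1, Uhrf2, Usp7 and Ehmt2 lie near 0.

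S phase genes were lower as a group. The list of 40 genes holds none of the 7 genes and none of the partners above. In it 37 were called lower and 0 higher, beside 15.2% and 15.9% of all genes tested. The median log2 fold change was -0.72. Cdc6, which licenses replication origins, went from 249 ± 25.5 to 31.7 ± 4.98 normalized counts (log2 fold change -2.97 ± 0.23). Clspn, Exo1 and Ccne2 changed by -2.93 ± 0.37, -2.76 ± 0.32 and -2.60 ± 0.16. The values of the 40 genes ran from -2.97 to -0.10. Whether the change of Uhrf1 follows from fewer cells in S phase was not tested.

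The de novo methyltransferase genes had higher values in Pbrm1 cKO, with less certainty than Uhrf1. Dnmt3a (chr12:3806007-3914443, plus strand) had 469, 588 and 791 normalized counts in WT against 856, 863 and 789 in Pbrm1 cKO. WT library 3 lay within the Pbrm1 cKO range and the other WT libraries below it. The log2 fold change was 0.44 ± 0.18 with an adjusted p of 0.0407, and the call was lost with edgeR (adjusted p of 0.0556) and when WT library 1, WT library 2 or any single Pbrm1 cKO library was left out (log2 fold change 0.28 to 0.48), while it was 0.66 without WT library 3. Dnmt3b (chr2:153649450-153687730, plus strand) was lower in level (10.3 against 37.0 normalized counts per kb of exon in WT), with 53.4, 54.4 and 49.7 normalized counts in WT against 79.9, 67.1 and 85.4 in Pbrm1 cKO. The groups did not overlap, yet the log2 fold change of 0.56 ± 0.26 had an adjusted p of 0.0907 with DESeq2, against 0.0276 with edgeR and 0.032 with limma voom. Dnmt3l, a catalytically inactive cofactor best known from germ cells and embryos, had 258, 289 and 258 normalized counts in WT against 219, 233 and 257 in Pbrm1 cKO, with log2 fold change -0.18 (95% interval -0.48 to 0.11). Trdmt1, which methylates tRNA, had log2 fold change -0.17 (95% interval -0.62 to 0.29). The rodent germline gene Dnmt3c had at most 1.97 normalized counts in any library, within the floor of 3 counts, and was not tested. The transcript Dnmt3aos, antisense within Dnmt3a, had 25 reads in all, counted apart from Dnmt3a by strand. These were 0, 1 and 2 reads in WT against 13, 6 and 3 in Pbrm1 cKO. Its log2 fold change of 2.64 ± 1.30 did not pass (adjusted p of 0.112, DESeq2).

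Of the TET genes, Tet2 and Tet3 rose, and Tet1 had lower values that did not pass. Tet2 (chr3:133463679-133545139, minus strand) had 271, 276 and 213 normalized counts in WT against 482, 461 and 445 in Pbrm1 cKO. No WT library reached the lowest Pbrm1 cKO library. The log2 fold change was 0.87 ± 0.15, a 1.82-fold higher level, with a 95% interval of 0.58 to 1.16 and an adjusted p of 5.9e-08. Tet3 (chr6:83362373-83459084, minus strand) had 240, 313 and 376 normalized counts in WT against 619, 584 and 635 in Pbrm1 cKO. Here too every Pbrm1 cKO library was above every WT library, and the log2 fold change was 0.98 ± 0.17 with a 95% interval of 0.66 to 1.31 and an adjusted p of 4.95e-08. Tet1 (chr10:62804570-62908996, minus strand), best known from embryonic stem cells and germ cells, was near the low end of detection, at 25.7, 30.0 and 32.4 normalized counts in WT against 19.7, 16.8 and 14.1 in Pbrm1 cKO. Its groups did not overlap, and its log2 fold change of -0.80 ± 0.42 had an adjusted p of 0.142 with DESeq2, 0.0278 with edgeR and 0.0289 with limma voom.

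Features other than genotype moved with the TET result. The leukocyte markers rose as given above, and leukocytes are known to express Tet2 and Tet3. In WT libraries 1, 2 and 3 the leukocyte sum was 4234, 9366 and 9210. Tet3 had 240, 313 and 376 normalized counts there and Tet2 had 271, 276 and 213. The endothelial and epithelial sums were also lowest in WT library 1. The part of leukocyte RNA in the rise of Tet2 and Tet3 was not tested. The exon lengths of Tet2, Tet3 and Dnmt3a are 16870, 16695 and 16642 bases, and long genes tended to be higher in Pbrm1 cKO. In a split chosen after the data were seen, among genes with a mean normalized count of 10 or more, of 1263 with 10000 or more bases of exon, 35.5% were called higher and 12.1% lower, against 17.3% and 18.9% of 12798 shorter ones. With the trend of counts with gene length removed, the log2 fold change was 0.65 for Tet2 and 0.77 for Tet3, both still past the threshold, 0.23 for Dnmt3a, which was not, and -1.01 for Tet1 (exon length 15457 bases), which then passed with an adjusted p of 0.0468.

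The windows before the RefSeq starts of Tet2 and Tet3 (GRCm38.p6) are shown because both genes rose; they are in lower case throughout since they held no match to the words searched above.
Tet2, chr3:133544391-133544640, minus strand: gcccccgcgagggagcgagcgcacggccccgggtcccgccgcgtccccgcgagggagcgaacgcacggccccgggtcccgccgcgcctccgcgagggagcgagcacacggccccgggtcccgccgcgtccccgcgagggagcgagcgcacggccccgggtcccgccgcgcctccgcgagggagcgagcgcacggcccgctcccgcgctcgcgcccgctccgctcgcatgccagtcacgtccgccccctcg
Tet3, chr6:83441679-83441928, minus strand: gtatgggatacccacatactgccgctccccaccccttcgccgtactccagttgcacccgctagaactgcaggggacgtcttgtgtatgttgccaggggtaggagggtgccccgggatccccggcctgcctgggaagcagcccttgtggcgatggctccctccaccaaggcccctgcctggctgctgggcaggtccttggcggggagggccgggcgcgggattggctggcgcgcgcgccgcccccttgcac
The Tet2 window had 51 CpG dinucleotides in 250 bases and the Tet3 window 17, against a median of 19 over the 12 windows of the 7 genes. The 2 Uhrf1 windows had 10 and 30. The methylation state of these CpGs is not part of the data.

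Levels of different genes were compared as normalized counts per kb of exon. Dnmt1 was the most abundant of the 7 in both groups, at 317 ± 43.5 in WT and 306 ± 9.25 in Pbrm1 cKO (mean ± SD, n = 3). Uhrf1 followed at 142 ± 22 and 69.7 ± 5.99, and Dnmt3a at 37.0 ± 9.78 and 50.2 ± 2.46. Tet3 had 18.6 ± 4.07 and 36.7 ± 1.56 per kb, Tet2 15.0 ± 2.09 and 27.4 ± 1.12, Dnmt3b 10.3 ± 0.482 and 15.2 ± 1.84, and Tet1 1.90 ± 0.222 and 1.09 ± 0.183. The order was the same in both groups. In WT, Tet3 and Tet2 overlapped, at 14.4 to 22.5 and 12.6 to 16.4 per kb, and no other neighbours in the order did; in Pbrm1 cKO no neighbours overlapped. The order depends on the length used: per kb of the longest coding transcript, Dnmt3a stood above Uhrf1 in Pbrm1 cKO, at 86.3 against 82.8.

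**Figure D3:**
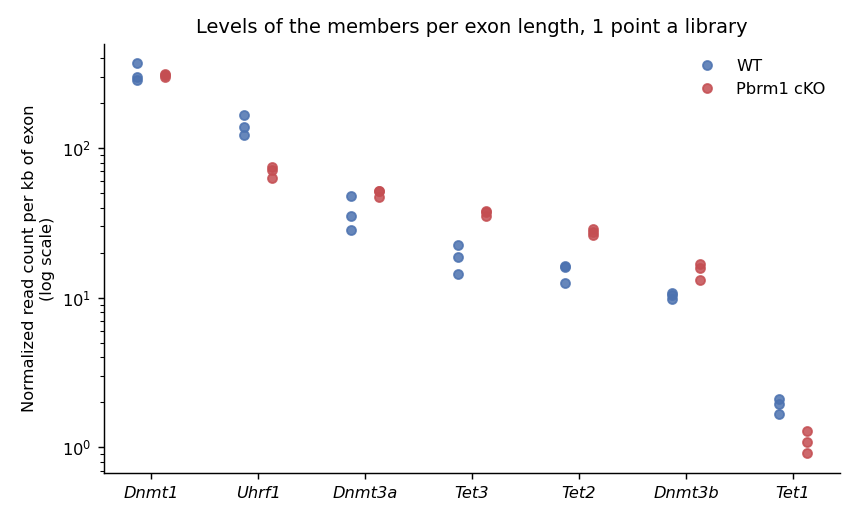
Normalized read count per kb of exon (vertical axis, log scale) of the 7 genes in each WT (blue) and Pbrm1 cKO (red) library. The order from Dnmt1 (317 and 306 on average) to Tet1 (1.90 and 1.09) is the same in both groups.

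On the same scale per kb, ratios between the genes were read. The sum of the 3 TET genes relative to Dnmt1 was 0.0876, 0.123 and 0.131 in WT and 0.213, 0.206 and 0.221 in Pbrm1 cKO, 1.87-fold higher on average. The sum of Tet2 and Tet3 relative to Uhrf1 was 0.184, 0.287 and 0.256 in WT and 0.926, 0.830 and 1.02 in Pbrm1 cKO, 3.82-fold higher on average. This second ratio sets the TET genes called higher over the gene called lower and leaves out Tet1. Its rise therefore follows from those calls. The sum of Dnmt3a and Dnmt3b relative to Dnmt1 was 0.105, 0.153 and 0.201 in WT and 0.214, 0.211 and 0.217 in Pbrm1 cKO, with WT library 3 close to the Pbrm1 cKO libraries. These ratios combine values already given and carry no test.

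Of 14 tested genes that supply or assist the TET enzymes, 3 were lower in Pbrm1 cKO and 0 higher, beside 15.2% and 15.9% of all genes tested, with a median log2 fold change of 0.08. Without WT library 3, or with the trend with gene length removed, 1 was called higher. The 3 lower genes were among 5 isocitrate dehydrogenase genes of the list, whose enzymes make 2-oxoglutarate. Idh1, the cytosolic form, had 1171, 1727 and 1384 normalized counts in WT against 522, 607 and 586 in Pbrm1 cKO. Idh2, the mitochondrial NADP-dependent form, had 1167, 1115 and 979 and then 420, 429 and 440. Neither gene had overlapping groups, and the log2 fold changes were -1.32 ± 0.15 for Idh1 and -1.34 ± 0.12 for Idh2, with adjusted p of 3.23e-16 and 1.31e-28. Idh3g, a subunit of the NAD-dependent enzyme of the citric acid cycle, changed by -0.44 ± 0.11, while its other subunit genes Idh3a and Idh3b, named after their values were seen, had log2 fold changes of 0.22 ± 0.16 and -0.12 ± 0.10 that did not pass. The level of 2-oxoglutarate was not measured.

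Downstream of the TET enzymes, 11 genes of base excision were tested. Of these, 1 was higher and 2 were lower, beside 15.9% and 15.2% of all genes tested. The median log2 fold change was 0.03. Tdg, the glycosylase that excises the oxidized bases, had 84.4, 98.8 and 184 normalized counts in WT against 150, 125 and 128 in Pbrm1 cKO. The WT libraries spanned the Pbrm1 cKO libraries, and the log2 fold change of 0.13 ± 0.29 did not pass. Ung, a uracil glycosylase active at replication, was lower at 59.3 ± 3.01 normalized counts against 182 ± 19 in WT (log2 fold change -1.61 ± 0.21). Apex1, the abasic site endonuclease, changed by -0.40 ± 0.10 and Ogg1, which removes oxidized guanine, by 0.59 ± 0.21. The Ogg1 call was lost without WT library 2, WT library 3 or any single Pbrm1 cKO library. Among 8 methyl-CpG readers tested, 1 was lower and 0 higher, beside 15.2% and 15.9% of all genes tested, and the other 7 did not pass. The lower gene was Mbd4, a glycosylase for mismatches at CpG (104 ± 21.9 to 51.8 ± 3.03 normalized counts, log2 fold change -1.01 ± 0.26, adjusted p of 0.000643). Without WT library 3, 2 readers were called lower and 1 higher, and without WT library 1, 1 was called higher.

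The methyl donor cycle, which makes S-adenosylmethionine, had calls in both directions. Of 18 genes tested, 4 were higher and 2 lower, beside 15.9% and 15.2% of all genes tested. The median log2 fold change was 0.09. The adenosine kinase gene Adk changed by -0.67 ± 0.09, the amino acid transporter gene Slc7a5 by 0.57 ± 0.16 and the methionine synthase gene Mtr by 0.39 ± 0.12. Mat2a and Ahcy, which make S-adenosylmethionine and clear its product, had log2 fold changes of 0.12 ± 0.15 and 0.08 ± 0.12 that did not pass; both were named after their values were seen. Without WT library 2, Pbrm1 cKO library 1 or Pbrm1 cKO library 2, 1 gene of the list was called higher instead of 4.

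**Figure D4:**
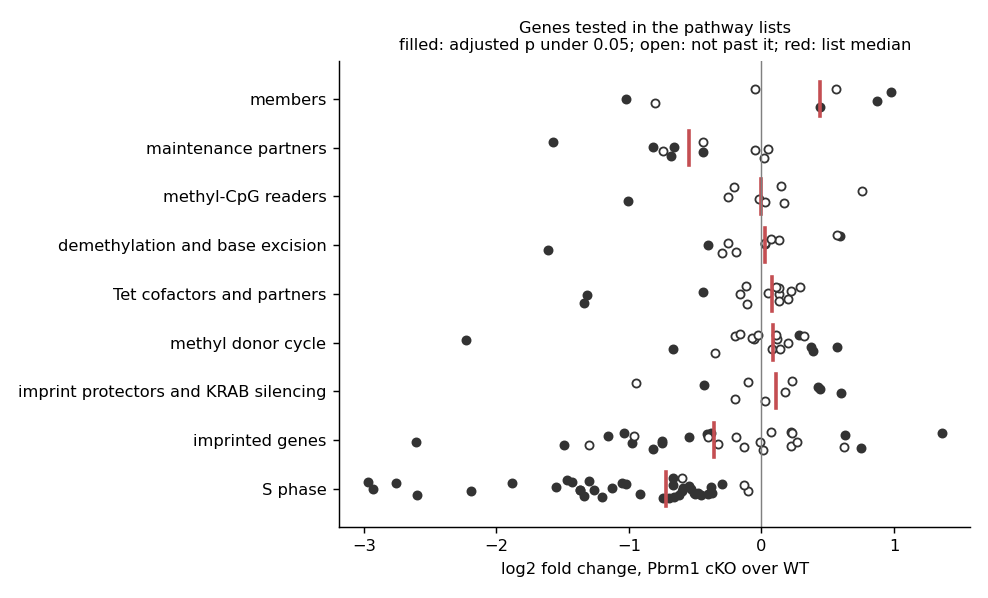
Log2 fold change in Pbrm1 cKO over WT of every tested gene of the 7 genes (members) and of 8 related lists, with 1 point a gene; filled points passed an adjusted p of 0.05 and red bars are list medians. The S phase list (median -0.72) and the maintenance partners (median -0.55) lie mostly below 0, and the other lists scatter on both sides.

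Genes whose expression is commonly held under DNA methylation were read as well. The counts of each list below stand beside 15.9% higher and 15.2% lower over all genes tested. Of 22 germline genes that are usually methylated in somatic cells, 5 had enough reads to be tested, 1 was called higher and 0 lower, and 8 of the 14 with any read stayed within the floor of 3 counts per library in both groups. The called gene was the meiosis gene Tex11, at 0, 4.44 and 3.24 normalized counts in WT against 20.7, 13.6 and 10.3 in Pbrm1 cKO (log2 fold change 2.54 ± 0.87, adjusted p of 0.0137). The numbers behind it are small, and the call was lost without WT library 1, Pbrm1 cKO library 1 or Pbrm1 cKO library 2. It was named after its values were seen, since its mean is under 20. Of 28 imprinted genes tested, 3 were higher and 11 lower, with a median log2 fold change of -0.36; without WT library 2 or Pbrm1 cKO library 2, 7 were lower. The lower genes included Nnat (38.7 ± 3.64 to 6.37 ± 2.61 normalized counts, log2 fold change -2.61 ± 0.50) and the long noncoding RNA Rian (949 ± 95 to 423 ± 34.2, -1.16 ± 0.13). Slc38a4, an amino acid transporter gene, was higher (44.9 ± 3.38 to 115 ± 18, 1.36 ± 0.26). Of 10 genes that guard imprints or act in KRAB zinc finger silencing, Atf7ip, Morc2a and Daxx were higher by 0.60 ± 0.12, 0.44 ± 0.13 and 0.43 ± 0.12 on the log2 scale, and Zfp57, which binds methylated imprinting control regions, was lower at -0.43 ± 0.16 (adjusted p of 0.0231), a call lost without WT library 1 or 2 or Pbrm1 cKO library 1 or 2; without WT library 3, 2 genes of this list were lower. Allele-specific expression was not measured.

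**Figure D5:**
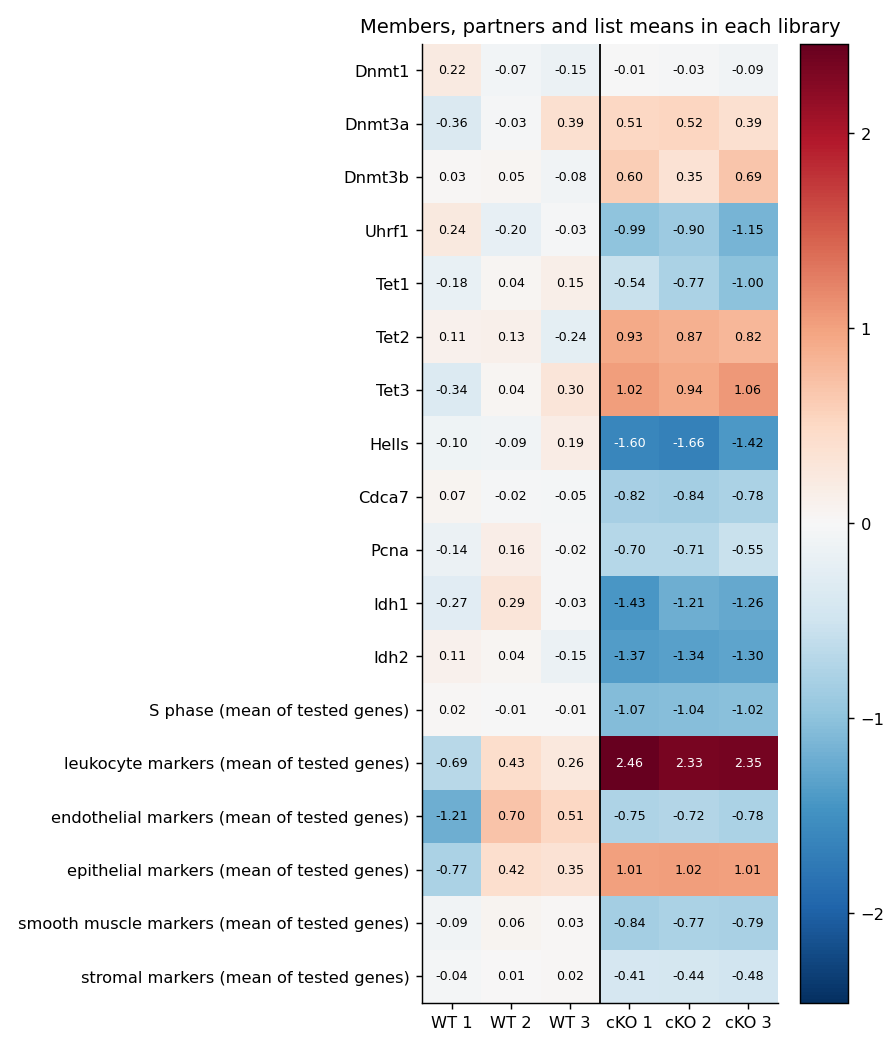
Log2 level in each library relative to the WT mean for the 7 genes, 5 related genes and the means of the S phase and cell type marker lists (tested genes). The Pbrm1 cKO libraries run from -0.90 to -1.15 for Uhrf1, from 0.94 to 1.06 for Tet3, from -0.54 to -1.0 for Tet1 and from 0.35 to 0.69 for Dnmt3b, while WT library 1 is low for the endothelial (-1.21), epithelial (-0.77) and leukocyte (-0.69) lists.

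The spread was wider among WT than among Pbrm1 cKO libraries, with a biological coefficient of variation of 0.16 against 0.046 (edgeR). The DESeq2 test fitted a dispersion per gene that both groups share, and so did not take up this difference. Dnmt3a and Tet3 shared the order of the WT libraries, lowest in library 1 and highest in library 3, and Dnmt1 and Uhrf1 were both highest in WT library 1. Each preparation pooled animals, and nothing in the labels says how the preparations of a group were separated, so the p-values measure the spread between these libraries.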

How the data were processed

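RNA-seq counts of 6 libraries, 3 WT and 3 Pbrm1 cKO, were analysed. The authors deposited raw read counts per gene: reads were trimmed with cutadapt, aligned with HISAT2 and, per the file headers, counted with featureCounts 1.6.4 in its reverse-stranded setting on GENCODE mouse release 18 (GRCm38). The labels describe a total RNA kit with depletion of unwanted transcripts, and the study's methods poly(A) selection; which was used decides how unpolyadenylated RNA is seen. Symbols came from GENCODE release 21 and matched 99.9% of the 54232 identifiers; all sample columns were used.

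Counts were tested with DESeq2 1.42.0 (Wald test, no covariate, Benjamini-Hochberg adjustment, threshold 0.05), the tool of the study, in R 4.3.3. Of 28552 genes with a read, 17474 passed its filter on low counts. Intervals are 95% and two-sided. Normalized counts are counts divided by DESeq2 size factors. A library's floor was 3 counts, 0.164 to 0.226 CPM, and covers counting error only. The 7 genes and the lists were chosen with earlier results of these data known. Alternatives were TMM size factors, edgeR 4.0.16 (quasi-likelihood), limma 3.58.1 (voom), no filtering, only genes kept by filterByExpr, a replicate block, removal of the gene length trend, a test against a log2 change of 0.58 at an adjusted p of 0.1, and each library left out. The tests were run on simulated counts with equal spread in both groups and a small part of the genes changed. Those settings differ from these data, so that run cannot vouch for the tests under unequal spread. No 2 libraries of a group were copies, since every pair differed beyond the noise of sampling reads. The median chi-square over genes was 4.4 to 9.73 times that of copies for WT pairs and 1.57 to 2.8 times for Pbrm1 cKO pairs. This does not tell whether the libraries of a group came from separate pools of animals.

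Named genes were the 7 genes, Pbrm1, of each related list the 4 called genes with the largest change and a mean of 20 or more (any gene in lists of 10 or fewer), the 2 protein-coding genes nearest in pattern to each of the 7, and the most abundant and defining cell type markers; some listed genes are not reported here. Promoter sequences are from RefSeq (GRCm38.p6). With 3 against 3 libraries an exact permutation test cannot go below 0.1 and was not used.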

Additional observations from a re-analysis of the deposited data

How the results depend on the processing

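Uhrf1, Tet2, Tet3 and Pbrm1 kept their direction in each of 14 alternatives; the calls of Uhrf1 and Pbrm1 held in all 14, that of Uhrf1 against a log2 change of 0.58 only at that test's looser threshold of 0.1 (adjusted p of 0.0644), and those of Tet2 (0.87) and Tet3 (0.98 on the log2 scale) were lost only in the test against a log2 change of 0.58, which left 0 of the 7 genes called higher, 699 genes higher and 563 lower of all genes, and 25 calls in the related lists. The call of Dnmt3a was lost in 9 of 14: at 0.44 with edgeR, without independent filtering and against 0.58, at 0.23 with the gene length trend removed, and in 5 of 6 fits without a library. Dnmt3b passed with edgeR (0.56) and limma voom (0.54). Tet1 passed with edgeR (-0.79), limma voom (-0.79) and the length trend removed (-1.01), so that 2 of the 7 genes were called lower there. Dnmt1 turned to 0.06 without WT replicate 1, uncalled. Leaving out each library in turn gave -0.13 to 0.06 for Dnmt1, 0.28 to 0.66 for Dnmt3a, 0.49 to 0.66 for Dnmt3b, -1.12 to -0.90 for Uhrf1, -0.92 to -0.68 for Tet1, 0.75 to 0.93 for Tet2 and 0.83 to 1.14 for Tet3; 1923 to 2915 genes were higher, 1790 to 2660 lower, 2 to 3 of the 7 genes higher and 60 to 77 genes of the related lists called. Per kb of the longest coding transcript, chosen after the data were seen, 2 ranks swapped. The cause of these changes was not tested. Replicate numbers did not pair the libraries (correlation of deviations 0.114, -0.052 and 0.003 over 10986 genes); with the replicate number as a block, no call among the 7 genes changed (Dnmt3a 0.47, Uhrf1 -1.02) and 2175 genes were higher and 1828 lower; among the related lists calls went from 74 to 57: the block ended the calls of Ogg1, Tex11 and Zfp57 and left 4 maintenance partners lower in place of 5 (without Cbx3), 31 S phase genes lower in place of 37, 6 imprinted genes lower in place of 11, and 2 methyl donor genes higher in place of 4 (without Mtr); of the markers, 0 stromal were higher in place of 1 and 2 endothelial lower in place of 4. Of 420 recomputed counts for the lists, 353 stayed within 1.5 times and 67 moved. At this depth 17 of the 22 germline genes were not tested.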

Other observations

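For each of the 7 genes the 2 protein-coding genes with the nearest pattern over the 6 libraries were found among 10404 genes (10405 for Tet1), by the root mean square difference of log2(normalized count + 1) after centring. This is a description with no test, over libraries that share their genotype difference. Uhrf1 was nearest to Hand2, a transcription factor gene of the progesterone-responsive stroma (0.050 on the log2 scale), and to Chaf1a, a chromatin assembly factor gene used at replication (0.059). Hand2 had 965, 745 and 760 normalized counts in WT against 420, 427 and 384 in Pbrm1 cKO, and Chaf1a 356, 260 and 312 and then 144, 163 and 127. In both genes, as in Uhrf1, WT library 1 was highest and Pbrm1 cKO library 3 lowest. Tet3 was nearest to Uaca (0.061) and Vegfa (0.065), the gene of a vascular growth factor, which had 2517, 3404 and 3925 normalized counts in WT against 6229, 5927 and 5962 in Pbrm1 cKO. Tet2 was nearest to Ezr (0.063), which encodes the membrane linker ezrin, with 386, 386 and 332 normalized counts in WT against 758, 685 and 672 in Pbrm1 cKO, and to Disp1 (0.064). Dnmt1 was nearest to Nop2 (0.018) and Kifc3 (0.020), Dnmt3a to Upf2 (0.040) and Prkag2 (0.046), Dnmt3b to Arv1 (0.066) and Trafd1 (0.072), and Tet1 to Opn3 (0.061) and Tmem241 (0.063).

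Among the methyl-CpG readers, Mbd3, a subunit of the NuRD complex, had 276, 282 and 655 normalized counts in WT against 734, 712 and 610 in Pbrm1 cKO. WT library 3 lay within the Pbrm1 cKO range, as it did for Dnmt3a, and the log2 fold change of 0.76 ± 0.42 did not pass the threshold (adjusted p of 0.173, DESeq2).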
